A study of Mus musculus with 8 samples.

Results

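The genes described here encode the axoneme, the microtubule core of the cilium, and the transport machinery that builds cilia. Members were the probes whose gene symbol was Foxj1 or began with Dnah, Dnahc, Dnai, Dnaic, Tekt, Rsph, Ift or Bbs followed by a digit. This rule gave 94 probes of 48 genes, among 41174 probes on the array and 20920 gene symbols. Foxj1 and the dynein, tektin and radial spoke genes, which serve the motile cilium, made up 28 genes with 54 probes. The Ift and Bbs genes, which serve transport in cilia of all kinds, made up 20 genes with 40 probes. The rule reads gene names alone, but these gene families were picked for study with earlier results of these data known.

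The samples were whole lungs of 8 male C57BL/6 mice of 8 to 10 weeks, by the sample labels, without treatment. 4 mice were wild-type (WT1 to WT4), and 4 were Scgb3a2-transgenic (TG1 to TG4), carrying the mouse Scgb3a2 cDNA behind a human surfactant protein C promoter. This promoter is used to drive expression in alveolar type II cells. The transgenic animals came from a single line, so an effect of the transgene and an effect of its insertion site cannot be told apart. Each of the 8 arrays compared the RNA of 1 mouse, in Cy5, with a pool of RNA from the samples, in Cy3, and no dyes were swapped. All values are log2 ratios of mouse over pool after background correction and loess normalization within the array, so 0 means the level of the pool.

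Motile cilia cover the multiciliated cells of the conducting airways and beat to move mucus out of the lung. Dynein arms on the outer doublet microtubules generate the bending force, radial spokes pass signals from the central pair to the dyneins, and tektins are filament proteins inside the doublets. Foxj1 is the forkhead transcription factor that switches on the motile cilium program, together with RFX factors that bind X-box motifs. Intraflagellar transport (IFT) carries cargo along the axoneme, complex B toward the tip and complex A back to the base. The BBSome is a coat complex that moves membrane proteins through cilia, and nearly all cell types of the lung can form a primary cilium that needs this machinery.

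The sequences before the start sites of 5 members are shown because these genes were among the 10 members whose level followed Foxj1 most closely over the mice, as described further on, and hold 1 of the motifs searched. Of those 10 genes 8 had a promoter entry. The remaining 3 of these 8, Dnahc6, Rsph9 and Ift172, held neither motif and are not shown. RefSeq entries (GRCm38.p6) were found for 40 of the 48 genes, Foxj1 not among them, and gave 43 windows, since Tekt1 and Tekt2 have several start sites. Each window holds the 250 bases before the start site, written 5' to 3' on the strand of the gene. Capitals mark GTTGCC, a half-site of the X-box, or TGTTTA, the core of a forkhead motif, or their reverse complements GGCAAC and TAAACA. The first 3 windows hold the half-site and the last 2 the forkhead core. They are Tekt1 at chr11:72361883-72362132 on the minus strand, and, all on the plus strand, Ift140 at chr17:25015836-25016085, Dnahc7c at chr1:46425268-46425517, Dnahc5 at chr15:28203516-28203765 and Dnahc12 at chr14:26691304-26691553.
Tekt1: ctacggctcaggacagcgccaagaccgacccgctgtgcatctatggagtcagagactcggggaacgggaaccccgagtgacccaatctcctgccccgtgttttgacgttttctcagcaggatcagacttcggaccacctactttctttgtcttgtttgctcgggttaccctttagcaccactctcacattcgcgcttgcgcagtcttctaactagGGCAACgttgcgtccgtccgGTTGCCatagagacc
Ift140: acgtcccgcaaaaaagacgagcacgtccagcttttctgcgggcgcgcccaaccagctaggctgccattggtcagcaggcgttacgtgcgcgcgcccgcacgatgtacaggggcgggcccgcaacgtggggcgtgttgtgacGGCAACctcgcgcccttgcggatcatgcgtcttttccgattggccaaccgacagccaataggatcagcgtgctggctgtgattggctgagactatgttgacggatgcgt
Dnahc7c: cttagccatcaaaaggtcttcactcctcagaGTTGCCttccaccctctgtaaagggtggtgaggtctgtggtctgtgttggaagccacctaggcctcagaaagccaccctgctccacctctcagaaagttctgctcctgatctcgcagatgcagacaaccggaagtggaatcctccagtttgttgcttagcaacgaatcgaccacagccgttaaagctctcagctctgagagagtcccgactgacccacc
Dnahc5: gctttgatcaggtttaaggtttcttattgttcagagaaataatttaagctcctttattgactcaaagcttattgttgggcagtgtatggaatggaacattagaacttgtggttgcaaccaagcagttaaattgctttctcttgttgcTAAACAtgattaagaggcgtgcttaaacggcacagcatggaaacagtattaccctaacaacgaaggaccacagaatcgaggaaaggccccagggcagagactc
Dnahc12: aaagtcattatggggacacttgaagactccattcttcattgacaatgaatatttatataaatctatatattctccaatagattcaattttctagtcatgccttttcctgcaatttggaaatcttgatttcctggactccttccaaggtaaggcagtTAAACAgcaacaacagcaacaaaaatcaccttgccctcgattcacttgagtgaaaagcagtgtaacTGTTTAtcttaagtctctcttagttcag

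In Tekt1, shown at its upstream start site, the half-site lay 15 bases before the start and again, on the other strand, 35 bases before it. In Ift140 it lay 109 bases before the start on the other strand, and in Dnahc7c 219 bases before it. The forkhead core lay 103 bases before the Dnahc5 start on the other strand, and 28 bases and, on the other strand, 94 bases before the Dnahc12 start. Searched on both strands, the half-site was present in 7 of 26 motile windows (26.9%) and 4 of 17 transport windows (23.5%), beside 10.4% of 32851 promoter windows of the same length. The forkhead core was present in 7 of 26 motile windows (26.9%) and in 1 of 17 transport windows (5.88%), that of Ift88, beside 12% of all windows. Among the 9 windows of these 8 genes, 3 (33.3%) held the half-site and 2 (22.2%) the forkhead core. These are counts of exact letters in a short window. Variants of the motifs were not searched and are not marked, and no binding was measured.

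Nearly all member probes could be read in these lungs. Per array, 84 to 90 of the 94 member probes were well above the local background in the Cy5 channel. Of the 94, 85 were tested for genotype (49 motile, 36 transport), and each of the 48 genes kept at least 1 tested probe. A probe was tested if it was well above background on at least 4 arrays, whatever the genotype, and had 2 or more values in each genotype. The 9 probes not tested were 8 dim ones (of Dnahc1, Dnahc2, Dnahc8, Dnahc9, Ift80 and Ift81) and 1 of Ift140, which was flagged on too many arrays. Foxj1 was well above background on 8 of 8 arrays, as were the lung markers Sftpc and Scgb1a1. The arrays were of similar brightness, with a median Cy5 signal of 204 to 277.5 over a local background of 55.5 to 59, and the precision is limited by the number of arrays.

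The targeted gene was checked first. The log2 ratio of Scgb3a2 was 0.01, -0.39, 0.58 and -0.56 in WT1 to WT4 and 1.26, 0.47, 0.70 and 0.74 in TG1 to TG4. The transgenic mice were higher in the mean by 0.88 (SE 0.24, limma p = 0.00329, adjusted p = 1, exact permutation p = 0.0571, two-sided), with WT3 within the transgenic range.

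The first comparison asked whether the transgene changed the ciliary genes. It did not detectably do so in either group of members. Of 49 motile probes 0 passed an adjusted p of 0.05 in limma's test of transgenic against wild-type, and 0 passed an unadjusted p of 0.05. The same counts, 0 and 0, held for the 36 transport probes. Among all 32645 probes tested, 0% passed the adjusted threshold and 2.09% (683) the unadjusted one. The test that the methods name, run without limma's pooling of variances over probes, put 1 motile and 1 transport probe under an unadjusted p of 0.05, beside 2.65% of all probes.

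In both groups of members the median difference was small beside the median SE. The median difference of the motile probes was 0.03, with a range of -0.21 to 0.22 and a median SE of 0.15. For the transport probes the median was -0.01, with a range of -0.22 to 0.15 and a median SE of 0.12, and over all probes the median was 0.00. The transgenic mean was higher for 31 of 49 motile probes (63.3%) and 18 of 36 transport probes (50%), beside 50.4% of all probes. The groups did not overlap for 1 motile probe (2.04%) and 1 transport probe (2.78%), beside 1.97% of all probes. Both shares were near the background. Without TG1 the motile median was -0.06, and without WT3 it was 0.09. Members share samples and often regulation, so a count over them is not a count of independent observations.

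**Figure D1:**
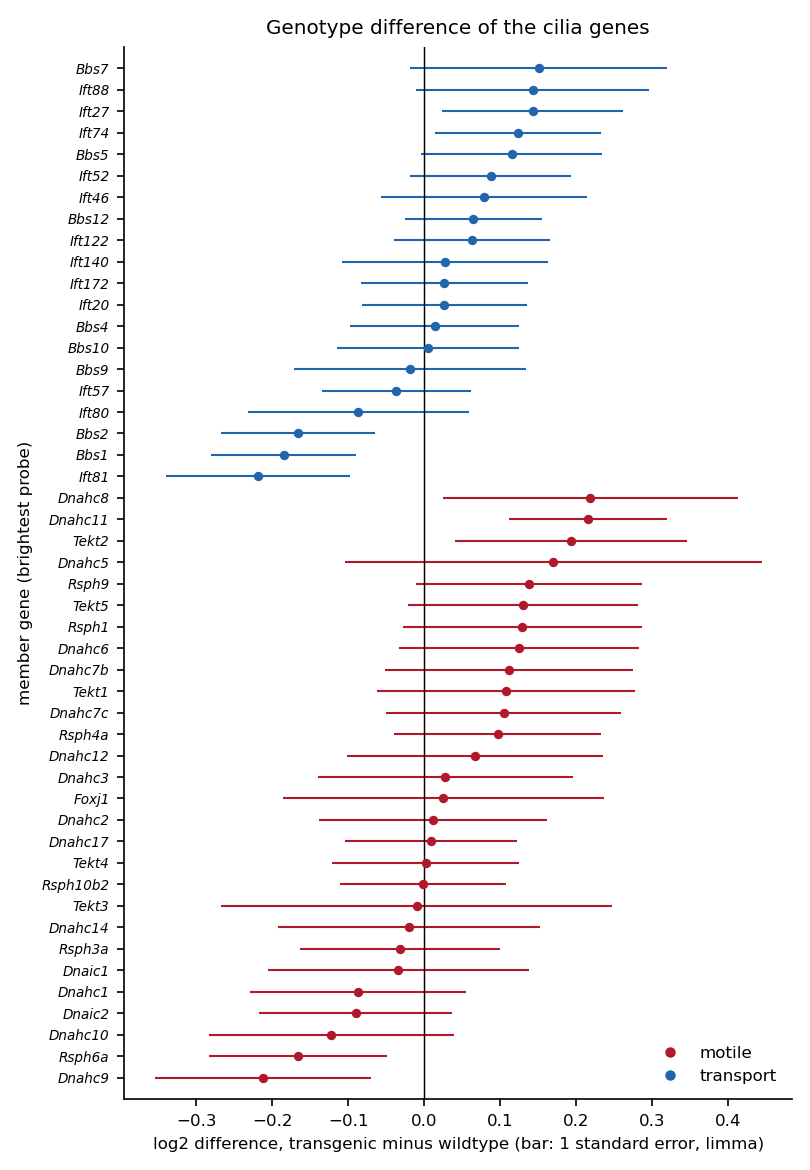
Difference in log2 ratio between transgenic and wild-type mice (horizontal axis) for the brightest tested probe of each of the 48 genes, with motile genes in red and transport genes in blue and bars of 1 SE. The differences lie on both sides of 0, between -0.22 and 0.22.

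Foxj1 itself was 0.31, 0.18, 0.65 and 0.06 in WT1 to WT4 and 1.00, -0.01, 0.28 and 0.03 in TG1 to TG4. The genotypes overlapped throughout, since TG1 held the highest value and TG2 the lowest. Wild-type mice had a mean of 0.30 ± 0.25 (SD, n = 4). Transgenic mice had one of 0.33 ± 0.46 (SD, n = 4). The difference of 0.03 (SE 0.21) had a limma p of 0.906 and an exact permutation p of 0.914, for which 4 against 4 mice allow 0.0286 at the least. Its sign turned to -0.08 when arrays were only centered on their medians, and to -0.07 with array weights. Without TG1 it was -0.20, and without WT3 it was 0.14, so single mice set its direction.

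The members nearest to a genotype difference were Dnahc11, Bbs1 and Ift81. Dnahc11, an outer arm dynein heavy chain, was -0.06, -0.16, -0.03 and -0.02 in wild-type mice and 0.36, 0.07, 0.13 and 0.03 in transgenic mice. The transgenic values all lay above the wild-type values, by 0.22 in the mean (SE 0.10, limma p = 0.0604, adjusted p = 1, exact permutation p = 0.0286). Over the alternatives tried its p, exact tests not counted, ran from 0.0359 to 0.825. Bbs1, a subunit of the BBSome, was 0.20, 0.22, 0.18 and 0.14 in wild-type mice and 0.10, 0.08, -0.14 and -0.04 in transgenic mice. Here the transgenic values all lay below, by a mean of -0.18 (SE 0.10, limma p = 0.0783, adjusted p = 1, exact permutation p = 0.0286). Ift81, a complex B subunit that binds tubulin cargo, overlapped between genotypes and differed by -0.22 (SE 0.12, limma p = 0.0978, adjusted p = 1, exact permutation p = 0.171), while its second probe differed by -0.03. These 3 were singled out after their values were seen.

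Slide and scan day were checked, since each of 4 slides carried 1 mouse of each genotype and scanning took 2 days. The Foxj1 difference was -0.62, 0.69, -0.19 and 0.22 within the slides, and 0.03 and 0.02 within the scan days. The median difference of the motile probes was -0.15, 0.31, -0.06 and 0.01 within the slides and 0.08 and -0.02 within the scan days. That of the transport probes was -0.12, 0.07, -0.03 and 0.08 within the slides and -0.02 and 0.00 within the scan days. Neither group kept 1 direction over the slides.

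The larger differences among the members were between single mice. The median log2 ratio of the 49 motile probes was 0.05, 0.12, 0.30 and 0.07 in WT1 to WT4 and 0.41, 0.07, 0.10 and 0.11 in TG1 to TG4. The median of the 36 transport probes was 0.13, 0.05, 0.18 and 0.07 in wild-type and 0.27, 0.04, 0.08 and 0.00 in transgenic mice. TG1 and WT3, 1 mouse of each genotype, were the highest for both, and the motile median stood out more. The median over all probes stayed between 0.00 and 0.01 on every array. In whole lung, more ciliated cells and more RNA per ciliated cell cannot be told apart.

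**Figure D2:**
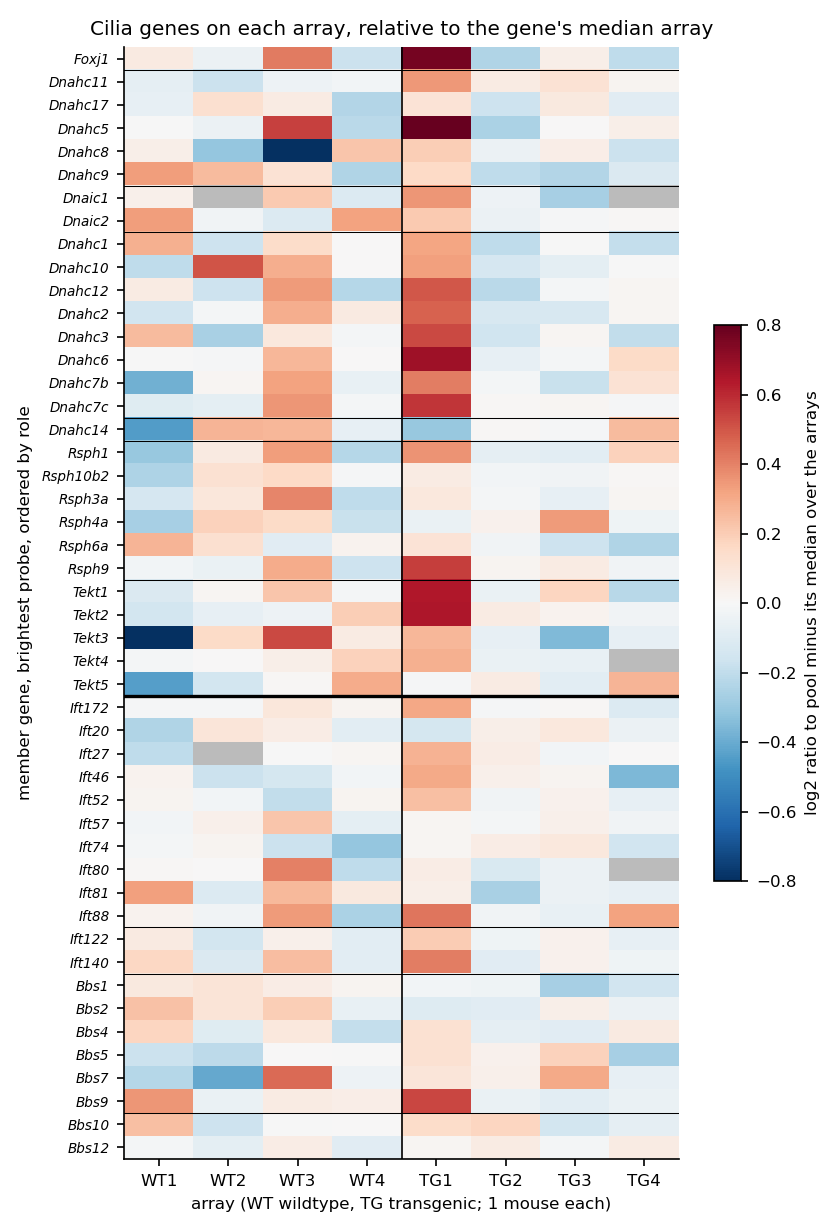
Log2 ratio of the brightest tested probe of each of the 48 genes (rows) in each mouse (columns), minus the median of the gene over the 8 arrays, with colors limited to 0.8 in either direction and gray for a flagged spot. Many motile genes are above their own median in WT3 and TG1, while transport genes vary less.

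Foxj1 was highest on TG1 and next on WT3. Of 45 motile probes with a value on all arrays, 18 (40%) had the same 2 arrays on top, in either order, beside 6.59% of 29493 probes. Of 32 transport probes 3 (9.38%) did. The motile probes varied with a median SD of 0.22 over the 8 mice, against 0.15 for the transport probes and 0.18 for all probes. An SD above 0.30, which 10% of all probes had, was found for 6 motile probes (12.2%) and 1 transport probe (2.78%). Above the pool on all arrays lay 15 motile (30.6%) and 10 transport probes (27.8%), beside 22% of all, and below it on all arrays 1 motile (2.04%) and 4 transport probes (11.1%), beside 20.4% of all. No dyes were swapped, so a ratio to the pool may hold a dye effect. A dye effect equal on all arrays cancels in a difference between mice, while one that varies between arrays does not. Whether it varied was not tested.

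Pearson's r with Foxj1 over the 8 mice described this joint pattern, which for the motile probes rested in large part on TG1 and WT3. The r was at least 0.8 for 13 of 48 motile probes other than Foxj1 (27.1%) and for 4 of 35 transport probes (11.4%), beside 3.64% of 31964 probes. The median r was 0.55 for motile probes, 0.41 for transport probes and 0.03 for all probes. An r above 0 was found for 42 motile (87.5%) and 32 transport probes (91.4%), beside 51.7% of all. The exact permutation p of r was under 0.05 with a positive r for 16 motile (33.3%) and 5 transport probes (14.3%), beside 7.5% of all probes. Without TG1 alone, 5 motile probes reached 0.8, beside 2.49% of all. With centering in place of loess 6 motile and 1 transport probes did, beside 1.75%, and with normexp fitted on all spots 7 and 2, beside 1.68%. After Benjamini-Hochberg adjustment over the 31964 probes, 0 members and 0 of all probes passed, and the lowest adjusted p of a member was 0.238.

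With TG1 and WT3 left out, the 2 mice farthest from the median of Foxj1, hardly any high correlation was left, and the median r came down more for the motile than for the transport probes. Leaving out these mice also narrows the range of Foxj1. Over the other 6 mice an r of at least 0.8 was found for 1 of 45 motile (2.22%) and 1 of 32 transport probes (3.12%), beside 2.22% of all probes. The motile probe was 1 of Dnahc5, with r of 0.97 over 8 mice and 0.87 over 6. The transport probe, 1 of Bbs2, had r of 0.12 over 8 mice and 0.88 over 6, so it was not among those at 0.8 or more over all mice. The median r of these motile probes was 0.53 over 8 mice and 0.17 over 6, and that of the transport probes 0.39 and 0.32, beside 0.03 and 0.02 for all probes. Over the 6 mice r was above 0 for 25 motile (55.6%) and 21 transport probes (65.6%), beside 51.2% of all. The rank correlation, which limits the weight of single mice, had a median of 0.36 for motile, 0.33 for transport and 0.02 for all probes. Over the 8 mice it was at least 0.8 for 6 motile (13.3%) and 1 transport probe (3.12%), beside 2.32% of all. Within the 4 arrays of the first scan day, which held both TG1 and WT3, the median r was 0.57 for motile and 0.48 for transport probes. Within the 4 of the second day it was 0.23 and 0.26.

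**Figure D3:**
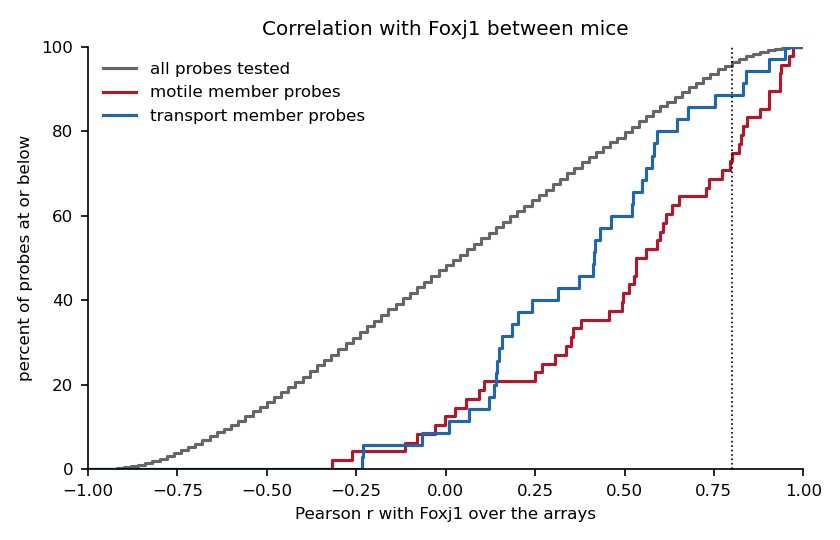
Cumulative percent of probes (vertical axis) against Pearson's r with Foxj1 over 8 arrays (horizontal axis) for all probes, motile members and transport members, with a dotted line at r = 0.8. Both member curves lie to the right of that of all probes, with medians of 0.55, 0.41 and 0.03.

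The 10 genes with the highest r among the members' brightest probes, 7 motile and 3 transport, had an r between 0.83 and 0.96. All 10 were highest in TG1, and 8 had WT3 next. Foxj1 was itself highest in TG1 and next in WT3, so choosing genes by r favored this order, which is no separate result. Over the other 6 mice the r of these 10 genes ran from -0.52 to 0.73, and was below 0 for 2 of them. They are given below by their role.

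Of the outer arm dynein genes, 5 heavy chains with 11 probes had a median r of 0.49, with 3 probes at 0.8 or more. Dnahc5, an outer arm heavy chain whose loss causes primary ciliary dyskinesia, was 0.17, 0.12, 0.71 and -0.05 in wild-type and 1.34, -0.09, 0.17 and 0.22 in transgenic mice. TG1 and WT3 stood above the other 6, which lay between -0.09 and 0.22. Its r was 0.96 (exact permutation p = 0.00258, adjusted p = 0.325), rho was 0.74, and r without TG1 and WT3 was 0.58. The 3 probes of Dnahc5 had r from 0.11 to 0.97, and those of Dnahc8, another outer arm heavy chain, from -0.12 to 0.83. The brightest Dnahc8 probe was 0.48, 0.13, -0.37 and 0.66 in wild-type and 0.63, 0.39, 0.49 and 0.26 in transgenic mice, so here WT3 was the lowest mouse.

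The intermediate chains, which join the heavy chains to the doublet, had 1 probe each. Dnaic1 had an r of 0.82 over 6 mice (exact permutation p = 0.043), with WT2 and TG4 flagged. It was 0.63 in TG1, 0.49 in WT3 and 0.02 to 0.32 in the other 4, over which r was -0.14. The r of Dnaic1 was 0.57 with centering (exact permutation p = 0.251) and 0.55 with Agilent's processed signals (exact permutation p = 0.244). Dnaic2 had an r of 0.09, and its highest value, 0.16, was that of WT1.

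The inner arm dynein heavy chains, which shape the waveform of the beat, had the highest median r of any motile role, 0.73 over 19 probes of 8 genes, and 6 probes at 0.8 or more. Dnahc12 was -0.15, -0.38, 0.12 and -0.45 in wild-type and 0.28, -0.43, -0.23 and -0.20 in transgenic mice. Only TG1 and WT3 were above the pool. Its r was 0.94 (exact permutation p = 0.00156, adjusted p = 0.318), rho was 0.81 (exact permutation p = 0.0218), and r over the other 6 mice was 0.60. The 3 Dnahc12 probes had r from 0.27 to 0.94, and the mice above the pool differed between them. Dnahc3 was 0.54, 0.04, 0.38 and 0.28 in wild-type and 0.82, 0.13, 0.31 and 0.09 in transgenic mice, with WT1 above WT3 and r of 0.84 over all and 0.64 over the other 6 mice. With Agilent's processed signals its r was 0.42, and without TG1 0.59.

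Dnahc6 and Dnahc7c followed Foxj1 through TG1 and WT3 alone. Dnahc6 was 0.72 in TG1 and 0.30 in WT3, and between -0.02 and 0.19 in the other 6. Its r of 0.88 became -0.23 without those mice. Dnahc7c was 0.41 in TG1 and 0.20 in WT3, and between -0.26 and -0.15 elsewhere. Its r of 0.90 became -0.52. Dnahc7c has close copies in the mouse genome, so its probe may also report them. Dnahc14, a heavy chain whose arm is not certain, went another way, with r of -0.32, WT1 at -0.46 and TG1 at -0.32 as its lowest values.

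The radial spoke genes, 6 with 9 probes, had a median r of 0.51 and 1 probe at 0.8 or more. That probe was Rsph9, a protein of the spoke head, at 0.12, 0.09, 0.44 and -0.02 in wild-type and 0.69, 0.16, 0.21 and 0.12 in transgenic mice. Its r was 0.93 (exact permutation p = 0.00533), rho was 0.64 and r over the other 6 mice was 0.31. Rsph1, another spoke head protein, was 0.51 in TG1 and 0.49 in WT3 but also 0.34 in TG4, with r of 0.63. The 3 mice lay above the other 5, of which WT2 was nearest at 0.22. The r of Rsph1 was 0.41 without TG1, 0.38 with centering and 0.88 with Agilent's processed signals.

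Among 5 tektins with 6 probes the median r was 0.61 and 2 probes, both of Tekt1, reached 0.8. Tekt1 was 0.20, 0.33, 0.53 and 0.29 in wild-type and 0.95, 0.26, 0.48 and 0.09 in transgenic mice, with TG3 close behind WT3. Its r was 0.90 (exact permutation p = 0.00511), rho was 0.71 and r over the other 6 mice was 0.45. Tekt3 had the widest spread of the tektins, with an SD of 0.44. It was 0.12, 1.19, 1.56 and 1.10 in wild-type and 1.30, 0.97, 0.69 and 0.97 in transgenic mice. WT1 alone stood low, and r was 0.36. The r of Tekt3 was 0.59 without WT1, 0.19 without WT3 and -0.69 without both TG1 and WT3.

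**Figure D4:**
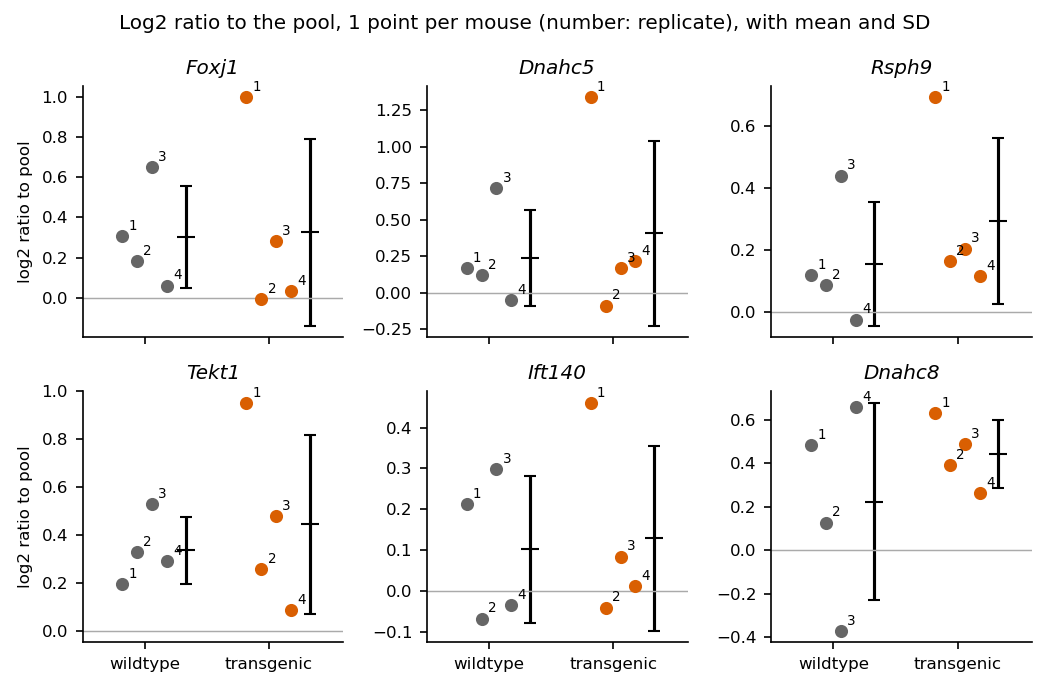
Log2 ratio to the pool (vertical axis) of Foxj1, Dnahc5, Rsph9, Tekt1, Ift140 and Dnahc8 in each of 4 wild-type and 4 transgenic mice, shown as points, with the mean and SD of each genotype. TG1 and WT3 are the highest mice for the first 5 genes, and WT3 is the lowest for Dnahc8.

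Of the transport genes, complex A of intraflagellar transport followed Foxj1 most, with 2 of its 4 probes at an r of 0.8 or more. Ift140, a core subunit of complex A, was 0.21, -0.07, 0.30 and -0.03 in wild-type and 0.46, -0.04, 0.08 and 0.01 in transgenic mice. TG1 was highest and WT3 next, with WT1 close behind. Its r was 0.95 (exact permutation p = 0.00104, adjusted p = 0.318), rho was 0.83 (exact permutation p = 0.0154), and r over the other 6 mice was 0.73, the highest among the 10. A second Ift140 probe had an r of 0.31. Ift122, also in complex A, was 0.14, -0.08, 0.11 and -0.01 in wild-type and 0.27, 0.03, 0.10 and 0.00 in transgenic mice, with r of 0.83 over all and 0.56 over the other 6 mice. Its r was 0.087 with centering and 0.0050 in the Cy5 signal alone.

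Complex B had 10 genes with 19 probes, a median r of 0.44 and 2 probes at 0.8 or more. Ift172 was 0.38, 0.38, 0.48 and 0.42 in wild-type and 0.70, 0.38, 0.40 and 0.28 in transgenic mice. TG1 alone stood apart, r was 0.90 over all and 0.35 over the 6 mice without TG1 and WT3, and another of its probes had an r of 0.01. With centering in place of loess its r was 0.10. Ift88, needed to build cilia, had r of 0.68, with 0.35 in TG1, 0.27 in WT3 and 0.25 in TG4. Ift46 had r of 0.58, with 0.45 in TG1 but 0.00 in WT3, and r of 0.044 without TG1.

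Of 10 probes of 6 BBSome genes, 0 reached 0.8, and the median r was 0.43. Bbs9, a scaffold subunit, had the highest r, 0.75, with 0.71 in TG1, 0.52 in WT1 and 0.09 to 0.24 in the other 6. Without TG1 its r was 0.35. The brighter Bbs7 probe was above the pool in all mice, at 1.09, 0.91, 1.77 and 1.28 in wild-type and 1.42, 1.36, 1.62 and 1.26 in transgenic mice, with r of 0.42. Its r was 0.24 without WT3 and 0.0065 with centering. A second Bbs7 probe had a mean of -0.32, between -0.44 and 0.03. Bbs10 and Bbs12, chaperonin-like factors that help assemble the BBSome, had r of 0.24 and 0.14. Bbs12 was the steadiest gene named here, between -0.34 and -0.18 over the 8 mice. Its probe was dim, with a mean log2 intensity over both dyes of 6.92, beside 9.17 for Foxj1. The part of low brightness in its small spread was not tested.

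Probes of 1 gene did not always give 1 answer. Of 27 genes with several tested probes, 19 had probes on both sides of 0 in the genotype difference, and 11 had values of r more than 0.5 apart. The share of probes that followed Foxj1 also differed with brightness. Among probes brighter than the median of all, r of at least 0.8 was reached by 7 of 17 motile probes (41.2%) and 4 of 22 transport probes (18.2%), beside 4.32% of all. Among dimmer probes it was reached by 6 of 31 motile (19.4%) and 0 of 13 transport probes, beside 3% of all.

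Genes of cilia outside the rule showed the same pair of mice. A list of 119 other motile cilia genes had 77 on the matrix, and 113 probes of 75 genes were tested. Of these, 73 probes were higher and 40 lower in transgenic mice, while 50.4% of all probes were higher. Of the 113, 0 passed the adjusted threshold, and 1 the unadjusted one, beside 0% and 2.09% of all probes. That probe was Tuba1a, an alpha tubulin not restricted to cilia, with a difference of 0.31 (SE 0.12, limma p = 0.0239, adjusted p = 1, exact permutation p = 0.0857). Next came Ak8, an adenylate kinase, at 0.29 (limma p = 0.0547, exact permutation p = 0.114), and Spag17, a central pair protein, at 0.24 (limma p = 0.0816, exact permutation p = 0.0857). An r with Foxj1 of at least 0.8 was found for 37 of 112 probes (33%), beside 3.64% of all, with a median of 0.69.

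The highest r in this list were those of Mlf1 (0.99, 7 mice), Dynlrb2 (0.98), Cdhr4 (0.97, 7 mice), Wdr63 (0.96) and Capsl (0.95), while a second Wdr63 probe had 0.58. Dynlrb2, a dynein light chain, was 0.31, 0.07, 0.44 and 0.09 in wild-type and 0.87, 0.05, 0.23 and 0.07 in transgenic mice. Its order over the mice was nearly that of Foxj1, with rho of 0.98. The list median was -0.02, 0.07, 0.25 and -0.03 in wild-type and 0.40, 0.00, 0.06 and 0.00 in transgenic mice, again highest in TG1 and WT3. The 93 probes of 50 other ciliary transport genes had medians between -0.06 and 0.03 on all 8 arrays, where TG1 and WT3, both at 0.03, were again the highest. Their median r was 0.23, and 13 of 91 probes (14.3%) were at 0.8 or more, beside 3.64% of all. Of them, 0 passed the adjusted and 0 the unadjusted threshold of limma's genotype test.

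Markers of other epithelial cells moved with the ciliary genes in part. The median of 13 club cell probes, of secretory cells that lie among ciliated cells, was 0.74, 0.35, 1.05 and 0.43 in wild-type and 0.76, 0.21, 0.56 and 0.20 in transgenic mice. WT3 and TG1 were highest, and WT1 was close. Of the 13 probes, 3 (23.1%) had an r with Foxj1 of at least 0.8, beside 3.64% of all probes. The median r of this list was 0.72, above the 0.55 of the motile members. That of the airway basal and mucous cell list was 0.58, and that of all probes 0.03. The median level of 18 probes of airway basal and mucous cells was 0.76 in TG1 and 0.59 in WT1, but 0.13 in WT3 and -0.34 to 0.09 in the others. The median of 18 alveolar type II probes was 1.17 in WT3, the highest mouse, and -0.29 in TG1, the lowest. In the other 6 mice it lay between -0.02 and 0.42. The part of these cells in the values of the ciliary genes was not tested.

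**Figure D5:**
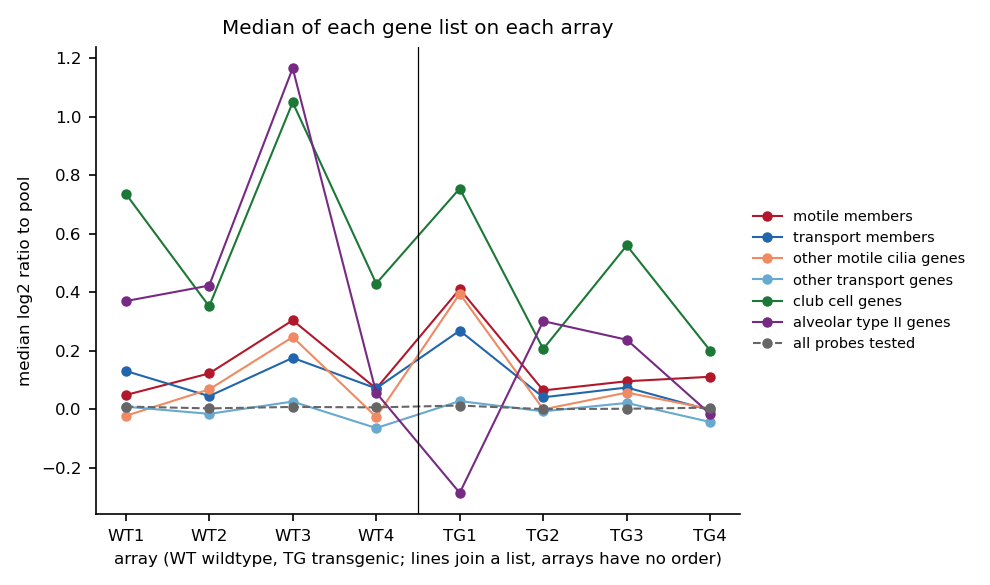
Median log2 ratio to the pool (vertical axis) of each gene list in each of the 8 mice (horizontal axis). The motile members reach 0.41 in TG1 and 0.30 in WT3, the other motile cilia genes 0.40 and 0.25, and alveolar type II genes 1.17 in WT3 and -0.29 in TG1.

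The joint pattern was weaker in the Cy5 signal alone, without division by the pool. There an r of at least 0.8 was found for 2 motile and 0 transport probes, beside 0.882% of all probes, and the median r was 0.16 for motile, 0.14 for transport and -0.12 for all probes. There r was 0.53 for Dnahc6, 0.49 for Rsph9, 0.40 for Ift140 and 0.55 for Ift172. For other genes r stayed higher under every alternative, this one included but leaving out both TG1 and WT3 not counted. The lowest r was 0.75 for Dnahc5, 0.73 for Dnahc12, 0.72 for Tekt1 and 0.71 for Dnahc7c. TG1 also had the lowest of the array weights, 0.395, where limma gives arrays that deviate from the fitted genotype means less weight, and WT3 the next lowest, 0.658. The part of array quality in the pattern was not tested.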

How the data were processed

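Lung RNA of 4 wild-type and 4 transgenic mice was measured on 8 two-color Agilent arrays, grouped by the genotype in the labels. The authors deposited spot intensities with median signals and local backgrounds, and log10 ratios of Agilent's processed signals. The file headers name Feature Extraction 10.10.1.1 and the submitters' processing notes 11.0.1.1. The authors also deposited a log2 ratio matrix with gene symbols. It has 0 columns of no sample.

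With limma 3.58.1 (R 4.3.3, data.table version 1.17.8), median signals were corrected with normexp (offset 50, fitted on unflagged spots, a choice kept from earlier work that had seen its effect) and normalized by loess (span 0.3) within each array. Control and flagged spots were left out, and spots of a probe were averaged. Of 41174 probes (43379 spots), 33970 were well above background on at least 4 arrays, and 32645 were also complete enough to test. Flagged spots made up 1.72% to 6.46% of an array and 0 were saturated. Genotypes were compared with limma's moderated statistics, two-sided, adjusted by Benjamini-Hochberg over all tested probes. Pearson's r and Spearman's rho with Foxj1 needed 6 arrays or more, with exact two-sided permutation p over the arrays, adjusted over 31964 probes. Adjustment over the members alone had been planned and was replaced, because the members were chosen with earlier results of these data known, as were the gene lists and tests. The labels do not say whether arrays shared an extraction, and p-values measure the spread between these mice.

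A gene was represented by its brightest probe. The genes named were Foxj1, any member with an unadjusted p under 0.05 (0 were found), in each role the 2 with the largest SD, the 10 with the highest r, and, of the other motile cilia genes, the 5 with the highest r and the 3 with the smallest genotype p. Genes added to these are marked as such. Lists of airway cartilage, thyroid and oesophagus, and male germ cell genes were also read. Promoter windows came from RefSeq (GRCm38.p6). Alternatives changed the background correction, normalization, channel, filter, variance model, test, blocking and probes per gene, or left out each mouse. The fits were tested on simulated data. The plots used matplotlib 3.10.9 under Python 3.11.15.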

Additional observations from a re-analysis of the deposited data

Results flagged for a closer look

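In 5 of 50 groups checked, 1 mouse stood far from the other 3 of its genotype by Dixon's test, and chance gives this in about 1 in 20 groups. The groups share the same 8 mice, and most are of genes named for a large SD or a high r with Foxj1, so the number of such groups is a description and not a test. In 4 of the 5 it was TG1. Dnahc7c was 0.41 in TG1, with the next transgenic mouse at -0.15. Rsph9 was 0.69 in TG1, with the next at 0.21, and Bbs9 was 0.71, with the next at 0.12. The median of the motile probes was 0.41 in TG1, with the next at 0.11. In wild-type mice, Dnahc6 was 0.30 in WT3, with the next at 0.05.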

How the results depend on the processing

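Under all alternatives run, 0 members passed the adjusted genotype threshold. The motile count under an unadjusted p of 0.05 was 1 in place of 0 without the filter on dim probes, with a trended robust variance, with the methods' t-test and with the mean of all probes of a gene, and 0 to 1 when single mice were left out. The transport count was 1 with centering only, without the filter, with slide blocks, with array weights and with the methods' t-test, and again 0 to 1 when single mice were left out. Over the alternatives the share of all probes under an unadjusted p of 0.05 ran from 0.968% to 3.71%, with 1.84% under centering. The Foxj1 difference was -0.0024 with normexp fitted on all spots, -0.076 with centering and -0.066 with array weights, and ran from -0.20 to 0.14 when single mice were left out. The median ratio of the transport probes to the pool was -0.056 with centering, against 0.09, and the median SD of the motile probes was 0.14 with slide blocks, against 0.22. The cause was not tested.

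The number of probes with r of at least 0.8 was, for motile probes (13), 7 with normexp fitted on all spots, 6 with centering and 2 in the sample channel alone, and for transport probes (4) it was 2, 1 and 0. With scan day blocks and with the mean of all probes of a gene the transport count was 2. Over all alternatives the share of all probes at 0.8 or more ran from 0.882% to 7.86%. Leaving out single mice gave 5 (without TG1) to 16 motile and 4 to 6 transport probes. The share over all probes moved too, to 1.68% with normexp on all spots, 1.75% with centering, 0.882% in the sample channel, 2.49% without TG1 and 6.36% without WT3.

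Replicate numbers were not taken as pairs, and same-numbered mice had deviations that correlated by 0.32, 0.25, -0.08 and -0.21. WT1 and TG1 shared a slide, as did WT2 and TG2. The values of 0.32 and 0.25 are therefore also slide correlations, and the checks by replicate number and by slide overlap. With replicate number as a block 0 members passed the adjusted threshold, and 24 motile and 6 transport probes had an r of at least 0.8, beside 7.82% of all probes. Mice on the same slide had deviations that correlated by 0.30, 0.32, 0.25 and 0.08, and the permutation p of r takes no account of slides. With slide blocks 19 motile and 6 transport probes had an r of at least 0.8, beside 7.86% of all. Each slide and each replicate number held 1 mouse of each genotype. An r with either block therefore rests on 4 differences between mice and keeps the genotype difference. The higher counts cannot be set against those over 8 mice. Under slide and replicate blocks r was 0.57 and 0.57 for Dnahc14, -0.63 and -0.38 for Dnaic2, -0.32 and -0.23 for Bbs10, and 0.83 and 0.98 for Tekt3 (0.36 without a block).

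With other settings, r of genes named changed sign with normexp on all spots for Dnahc14 (0.12) and Dnaic2 (-0.35), and with centering for Ift46 (-0.073). It did so in the sample channel for Dnaic1 (-0.082) and Bbs12 (-0.30), with the mean of all probes for Dnahc8 (0.39), and with Agilent's processed signals and the authors' matrix for Dnaic2 (-0.035 in both) and Bbs10 (-0.026 in both). With single mice left out, r ran from -0.71 to 0.45 for Dnahc8, -0.033 to 0.37 for Bbs12, -0.57 to 0.080 for Dnahc14, -0.23 to 0.33 for Dnaic2 and -0.049 to 0.46 for Bbs10. With 4 mice a genotype, a difference near the median SE of 0.15 for motile and 0.12 for transport probes could not be told from 0.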

Other observations

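The cartilage of the large airways, tissues next to the trachea, and a list of male germ cell genes were read in the same mice. The median of 22 airway cartilage probes lay between 0.00 and 0.18 on the 8 arrays, at 0.18 in TG1 but 0.07 in WT3. Of them, 2 (9.09%) had an r with Foxj1 of at least 0.8, beside 3.64% of all probes, and the median r was 0.27. Chad, a cartilage matrix protein chosen after its values were seen, had an r of 0.92, with 1.30 in TG1, 1.04 in WT3 and 0.86 in WT1. Of the cartilage probes, 1 passed an unadjusted p of 0.05, beside 2.09% of all probes. It was that of Cytl1, a cytokine-like protein of cartilage, which was lower in transgenic mice (-0.53, SE 0.19, limma p = 0.0166, adjusted p = 1, exact permutation p = 0.0857). The median of 12 thyroid and oesophagus probes lay between 0.10 and 0.23, with 0 at an r of 0.8 or more. The median of 21 male germ cell probes lay between -0.10 and 0.11, with 1 (4.76%) at an r of 0.8 or more, beside 3.64% of all.

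The mucin gene Muc5b, chosen after its values were seen, was 0.87, 0.64, 0.96 and 0.31 in wild-type and 1.44, -0.54, 0.35 and -0.50 in transgenic mice. TG1 and WT3 were again the highest, r with Foxj1 was 0.86 and rho was 0.98. The airway basal and mucous cell list did not share this order, with a median of 0.13 in WT3 and 0.59 in WT1. Of 17 of its probes, 2 (11.8%) had an r of at least 0.8, beside 3.64% of all probes. Of 18 alveolar type II probes, 5 passed an unadjusted p of 0.05, all lower in transgenic mice, beside 2.09% of all probes, and 0 passed the adjusted threshold. Of the 18, which are of 11 genes, 16 were lower in transgenic mice, with a median difference of -0.49, while 50.4% of all probes were higher. The list median was 0.37, 0.42, 1.17 and 0.06 in WT1 to WT4 and -0.29, 0.30, 0.24 and -0.02 in TG1 to TG4. WT3 and TG1 lay farthest apart, and the other mice overlapped between genotypes. Their median r with Foxj1 was -0.03.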
